A study of Mus musculus with 8 samples.

Results

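The 10 genes described here are transcriptional outputs of the Ras-ERK pathway: Spry1, Spry2, Spry4, Spred1, Spred2, Dusp4, Dusp6, Etv1, Etv4 and Etv5. They were chosen by name as known reporters of the pathway, but with earlier results of these data known. All 10 were found among the 49315 Ensembl genes of the count tables. RNA was sequenced from cultured cardiomyocytes of C57/Bl6 mouse hearts at embryonic day 12.5, 4 libraries from cells in medium with 10 µM simvastatin (SMV) and 4 from cells in control medium (Ctrl). Per the labels, male and female material was pooled, and the extraction notes speak of RNA from dissected hearts while the sample names speak of cardiomyocytes. How long the cells stood in simvastatin is not stated in the labels. No label ties a replicate to a culture of its own, and the p-values therefore cover only the spread among these libraries, which may be technical. The headers of the count columns name 2 sets, set 1 with replicates 1 and 3 of each group and set 2 with replicates 2 and 4. The headers do not say what a set was.

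When a growth factor receptor activates Ras, a kinase relay from Raf to MEK to ERK carries the signal to the nucleus, and ERK switches on genes that feed back on the relay. Sprouty and Spred proteins act near the receptor, Ras and Raf, the phosphatases Dusp4 and Dusp6 remove the activating phosphates from ERK itself, and Etv1, Etv4 and Etv5 are ETS transcription factors that carry the response on to further genes. Ras proteins need an isoprenoid lipid to sit in the membrane, and that lipid is built from mevalonate, whose synthesis simvastatin blocks. In the embryonic heart the relay runs downstream of FGF and neuregulin signals that support growth of the myocardium.

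The libraries held 30474586 to 34993255 counts with simvastatin and 31457872 to 35215640 in controls. Values are CPM, counts scaled to the library total after its adjustment by the TMM factor of edgeR, not to the total alone. Of 16126 genes tested, 9.61% fell and 7.79% rose with simvastatin or 17.4% in either direction (quasi-likelihood test of edgeR, with p adjusted by Benjamini-Hochberg over all genes and a threshold of 0.05), and the CPM of the groups did not overlap for 12.1% of genes in the direction of lower and 11.0% in the direction of higher. The cells carried the markers of their label: the 8 cardiomyocyte markers summed to 57827 to 65285 CPM with simvastatin and 51371 to 64547 CPM in controls. Over the 8 libraries 0 of the 8 passed the test (edgeR, with 0 at an unadjusted p under 0.05, 0 in DESeq2 and 0 in limma-voom). In set 2 alone 1 of them fell, beside 18.3% of all genes in either direction. The groups did not overlap for 1, Tnnc1, at 3004 to 3112 CPM with simvastatin and 3164 to 3767 CPM in controls. Hmgcs1, the first dedicated enzyme before HMG-CoA reductase, stood at 1108, 2037, 1442 and 2006 CPM in SMV replicates 1 to 4, against 342, 1203, 257 and 377 CPM in Ctrl replicates 1 to 4. Control replicate 2 was above SMV replicate 1 for that gene.

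The pathway outputs did not move together. Spry1, Dusp6 and Etv4 fell with simvastatin, Spry4 rose, and the other 6 did not pass the test. Thus 3 of 10 fell, beside 9.61% of all genes tested, and 1 of 10 rose, beside 7.79%, which makes 4 of 10 in either direction beside 17.4%. The groups did not overlap for these same 4 genes, 3 lower with simvastatin beside 12.1% of all genes and 1 higher beside 11.0%, or 4 in either direction beside 23.1%. In set 1 alone 3 members passed, beside 9.82% of genes, and in set 2 alone 4 passed, beside 18.3%. All 10 passed the filter on low counts. Their fitted log2 fold changes were below 0 for 5 and above 0 for 5, with a median of -0.08 against 0.01 over all genes tested. The median size of the change without its sign was 0.42 on the log2 scale for the members and 0.26 for all genes. As the members were chosen with earlier results of these data known, these counts and medians are a description only.

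**Figure D1:**
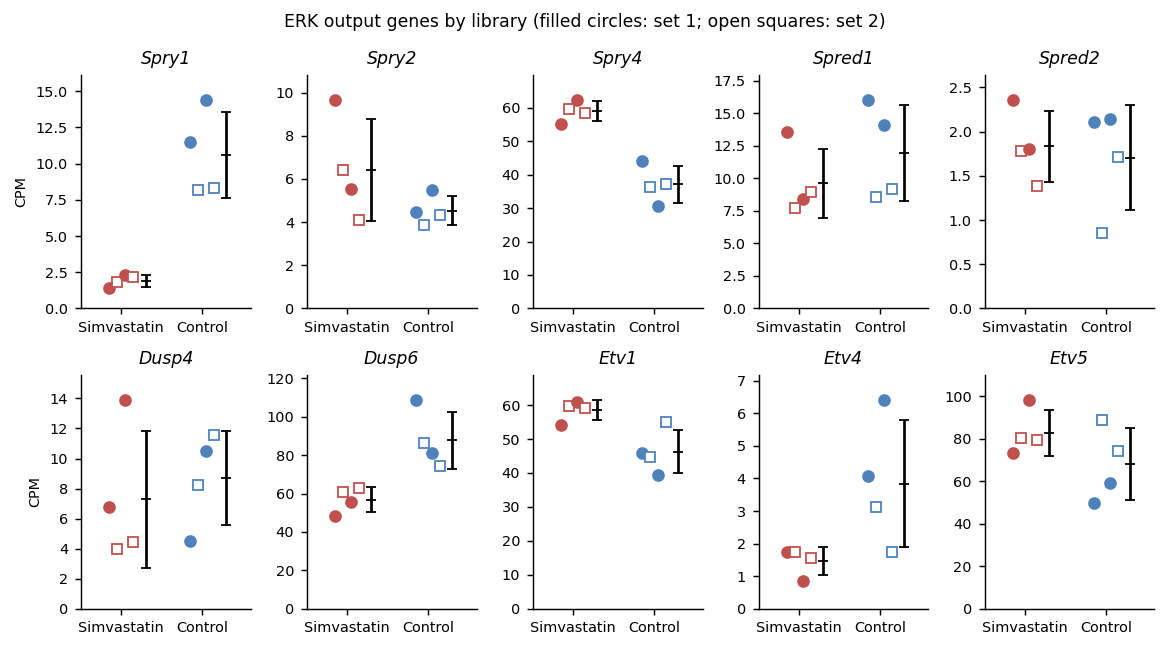
CPM (y axis, linear from 0) of each gene in the 4 simvastatin libraries (red) and 4 control libraries (blue), with circles for set 1, squares for set 2 and the mean ± SD beside the points. The Spry1, Dusp6, Etv4 and Spry4 groups do not overlap, but the Etv4 groups nearly touch at 1.73 and 1.75 CPM.

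Spry1, a membrane-bound inhibitor of receptor signalling, showed the largest change of the 10 (ENSMUSG00000037211, chromosome 3, 37639947 to 37644598, + strand, GRCm38). It had 1.39, 1.84, 2.29 and 2.14 CPM in SMV replicates 1 to 4, against 11.5, 8.17, 14.4 and 8.35 CPM in Ctrl replicates 1 to 4. Every simvastatin library was far below every control library, and among controls the set 1 libraries were the higher ones. The means were 1.91 ± 0.398 CPM with simvastatin and 10.6 ± 2.96 CPM in controls (SD, n = 4 each). This gave a log2 fold change of -2.47, with an SE of 0.25 (edgeR adjusted p = 9.85e-05), or 5.54-fold lower with simvastatin. It was -2.84 in set 1 alone and -2.05 in set 2 alone, and passed in both (edgeR adjusted p = 0.00537 and 0.000389). The raw counts behind these values were 44 to 71 per library with simvastatin and no fewer than 258 in controls. A weakly covered predicted gene on the other strand, Gm42922, overlaps its start and had 0 to 5 counts per library.

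Spry4, the Sprouty gene with the highest level per length here, went the other way (ENSMUSG00000024427, chromosome 18, 38586268 to 38601268, - strand). It had 55.2, 59.6, 62.4 and 58.3 CPM with simvastatin, against 44.1, 36.4, 30.6 and 37.2 CPM in controls. All simvastatin libraries were above all controls. The means were 58.9 ± 2.998 CPM with simvastatin and 37.1 ± 5.53 CPM in controls, which is 0.67 on the log2 scale with an SE of 0.12 (edgeR adjusted p = 0.00344). The effect had nearly the same size in both sets, 0.64 in set 1 alone and 0.68 in set 2 alone, but with 2 libraries a group it passed in set 2 only (edgeR adjusted p = 0.116 in set 1, 0.00178 in set 2). Spry2, which like the others is a feedback inhibitor of receptor tyrosine kinases (ENSMUSG00000022114, chromosome 14, 105891949 to 105896819, - strand), had 9.67, 6.39, 5.52 and 4.12 CPM with simvastatin, against 4.47, 3.88, 5.47 and 4.30 CPM in controls. The groups overlapped, and SMV replicate 1 was the highest library. Its log2 fold change was 0.50 with a 95% interval of -0.06 to 1.06 (edgeR adjusted p = 0.217).

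The make-up of the Sprouty transcripts was set side by side from these levels, with no test of its own. Per kilobase of exon, Spry1 made up 2.78% to 4.78% of the summed level of the 3 genes in simvastatin libraries, against 22.0% to 34.8% in controls. Spry4 made up 70.2% to 82.4% with simvastatin, against 46.8% to 63.0% in controls. Spry2 took 12.8% to 27.1% with simvastatin and 13.6% to 18.4% in controls, so only the shares of Spry1 and Spry4 were apart. The summed level was 16.6 ± 0.798 CPM per kb with simvastatin and 13.9 ± 1.39 CPM per kb in controls (SD, n = 4 each), with ranges of 15.4 to 17.1 and 12.6 to 15.7 that overlapped.

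**Figure D2:**
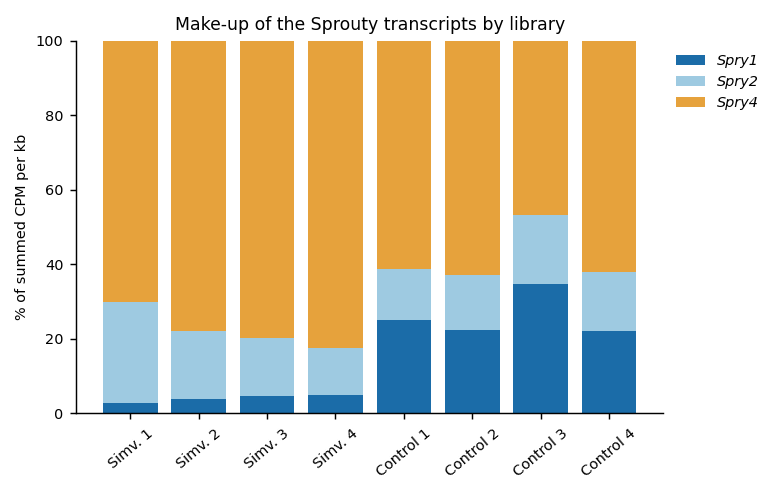
Share (y axis, percent) of Spry1, Spry2 and Spry4 in their summed CPM per kilobase of exon, 1 bar per library, simvastatin libraries left and controls right. Spry1 takes 2.78% to 4.78% of the bar with simvastatin and 22.0% to 34.8% in controls.

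The Spred genes, whose proteins bring the Ras inhibitor neurofibromin to the membrane, did not pass the test. Spred1 (ENSMUSG00000027351, chromosome 2, 117121374 to 117182279, + strand) had 13.5, 7.69, 8.39 and 8.95 CPM with simvastatin, against 16.1, 8.55, 14.1 and 9.16 CPM in controls. Its controls split by set, with both set 1 libraries above both set 2 libraries, and the groups overlapped. Its log2 fold change was -0.31 (95% interval -0.87 to 0.24, edgeR adjusted p = 0.462). Spred2 (ENSMUSG00000045671, chromosome 11, 19924375 to 20024026, + strand) was the lowest of the 10 genes per kilobase of exon in both groups. It had 2.36, 1.79, 1.81 and 1.38 CPM with simvastatin, against 2.11, 0.858, 2.15 and 1.72 CPM in controls. With 29 to 75 raw counts per library its interval was wide, from -0.58 to 0.79 around a log2 fold change of 0.10 (edgeR adjusted p = 0.874).

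Dusp6, the cytoplasmic ERK phosphatase, fell (ENSMUSG00000019960, chromosome 10, 99263231 to 99267488, + strand). It had 48.4, 60.7, 55.7 and 62.7 CPM with simvastatin, against 108.8, 86.5, 81.2 and 74.3 CPM in controls. Each simvastatin library was below each control. The means were 56.9 ± 6.38 CPM with simvastatin and 87.7 ± 14.9 CPM in controls, which is -0.62 on the log2 scale with an SE of 0.14 (edgeR adjusted p = 0.00931), or 1.54-fold lower. It was -0.88 in set 1 alone and -0.38 in set 2 alone, and passed in both (edgeR adjusted p = 0.0345 and 0.0358). Per length Dusp6 was the highest of the 10 genes in both groups, at 20.3 ± 2.28 CPM per kb with simvastatin and 31.4 ± 5.34 CPM per kb in controls.

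The promoter windows of Spry1 and Dusp6, the genes whose fall was called in both sets, are shown from 250 bases before to 50 after the RefSeq start (GRCm38.p6, + strand, Spry1 at chr3:37639697-37639996 and Dusp6 at chr10:99262981-99263280). Capitals mark the letters GGAATG, read by TEAD factors, in Spry1 and TGAATG, the first letters of the sites read by the repressor capicua, in Dusp6.
Spry1: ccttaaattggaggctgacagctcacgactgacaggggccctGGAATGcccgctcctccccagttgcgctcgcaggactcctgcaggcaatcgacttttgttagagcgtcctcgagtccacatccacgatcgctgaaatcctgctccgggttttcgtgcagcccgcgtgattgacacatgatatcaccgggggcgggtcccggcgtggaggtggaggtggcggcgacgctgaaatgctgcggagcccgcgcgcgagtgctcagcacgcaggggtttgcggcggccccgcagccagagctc
Dusp6: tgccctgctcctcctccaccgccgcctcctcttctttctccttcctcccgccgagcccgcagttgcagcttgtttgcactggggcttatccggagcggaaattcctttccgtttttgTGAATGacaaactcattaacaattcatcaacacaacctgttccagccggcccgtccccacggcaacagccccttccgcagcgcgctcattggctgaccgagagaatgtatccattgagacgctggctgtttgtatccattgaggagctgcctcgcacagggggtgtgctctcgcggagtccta
Motifs were searched on both strands in 9 windows of 7 of the genes and in all 32851 windows of the RefSeq table. Spry4, Dusp4 and Etv4 had no window among the 9, so the search of members does not cover the called genes Spry4 and Etv4. GGAATG stood in 14.7% of all windows, and among these genes in Spry1, at 208 bases before the start, and in Etv1. TGAATG stood in 12.7% of all windows and was in Dusp6, at 133 bases before the start, and 3 times in the downstream window of Etv5. That shorter search was added after the letters had been seen. The full capicua octamers TGAATGAA and TGAATGGA, which contain TGAATG, stood in 1.30% and 1.21% of all windows, the ETS letters CCGGAAGT in 3.89%, the AP-1 letters TGANTCA in 7.81% and the CArG box of SRF in 1.63%, and 0 of the 9 windows held any of these. A match is a description of the letters, not a bound site.

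Dusp4, the nuclear ERK phosphatase (ENSMUSG00000031530, chromosome 8, 34807297 to 34819894, + strand), gave no single answer. It had 6.80, 3.97, 13.9 and 4.41 CPM with simvastatin, against 4.50, 8.26, 10.5 and 11.6 CPM in controls. The highest library of all was SMV replicate 3, and Ctrl replicate 1 stood with the low simvastatin libraries. The log2 fold change over 8 libraries was -0.26 (95% interval -1.17 to 0.64, edgeR adjusted p = 0.739). It was 0.43 in set 1 alone (edgeR adjusted p = 0.659) and -1.24 in set 2 alone, where it passed (edgeR adjusted p = 0.00532).

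The Etv genes also divided. Etv4, the least abundant of the 3, fell (ENSMUSG00000017724, chromosome 11, 101769742 to 101785371, - strand). It had 1.73, 1.73, 0.839 and 1.55 CPM with simvastatin, against 4.07, 3.14, 6.41 and 1.75 CPM in controls. The groups were apart only by the narrow gap between Ctrl replicate 4 and SMV replicate 1. On the log2 scale the change was -1.39 with an SE of 0.39 (edgeR adjusted p = 0.0309), with -2.04 in set 1 alone and -0.58 in set 2 alone (edgeR adjusted p = 0.0426 and 0.299). The call ended in limma-voom (adjusted p = 0.0592) and without any 1 of SMV replicates 1 to 4 or Ctrl replicates 1 or 3, with edgeR adjusted p of 0.0536 to 0.0867 and log2 fold changes of -1.49 to -1.02. It also ended with the replicate number as a block (log2 fold change -1.28, edgeR adjusted p = 0.0984).

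Etv1 and Etv5 were far more abundant than Etv4 and lay higher, not lower, on average with simvastatin. Etv1 (ENSMUSG00000004151, chromosome 12, 38779380 to 38868215, + strand) had 54.2, 59.8, 61.0 and 59.2 CPM with simvastatin, against 45.9, 44.7, 39.5 and 55.0 CPM in controls. Ctrl replicate 4 was above SMV replicate 1, and all other controls were below all simvastatin libraries. Its log2 fold change was 0.34 (95% interval 0.09 to 0.59, edgeR adjusted p = 0.068). It passed in DESeq2 (adjusted p = 0.0374), with library totals alone (edgeR adjusted p = 0.0474), with set as a term (edgeR adjusted p = 0.0458) and without Ctrl replicate 4 (edgeR adjusted p = 0.0243, log2 fold change 0.43). Etv5 (ENSMUSG00000013089, chromosome 16, 22381309 to 22439719, - strand) had 73.3, 80.5, 98.3 and 79.2 CPM with simvastatin, against 49.8, 88.7, 59.4 and 74.4 CPM in controls. Its 2 lowest libraries were the set 1 controls. The log2 fold change was 0.28 (95% interval -0.10 to 0.67, edgeR adjusted p = 0.316), with 0.63 in set 1 alone and -0.03 in set 2 alone (edgeR adjusted p = 0.105 and 0.883).

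**Figure D3:**
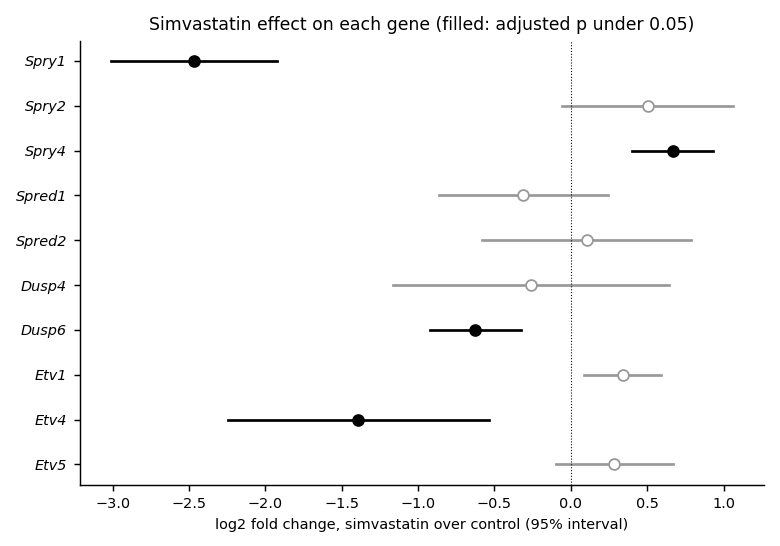
Log2 fold change of simvastatin over control (x axis) for each of the 10 genes, with lines for the 95% interval from the edgeR fit and filled points for an adjusted p under 0.05. Spry1 lies at -2.47, Etv4 at -1.39 and Dusp6 at -0.62, while Spry4 lies at 0.67.

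Ranked by level per length, the order in control cells was Dusp6, Etv5, Spry4, Etv1, Spry1, Dusp4, Spry2, Spred1, Etv4 and Spred2. In control cells the levels ran from 31.4 ± 5.34 CPM per kb for Dusp6 to 0.370 ± 0.130 CPM per kb for Spred2. Several neighbours in that order lay within their spread: Spry4 stood at 8.08 ± 1.20 and Etv1 at 7.86 ± 1.09 CPM per kb, and Spry1 at 3.65 ± 1.02 and Dusp4 at 3.18 ± 1.15 CPM per kb (SD, n = 4). With simvastatin the first 4 places were the same, Dusp6 at 20.3 ± 2.28 and Etv5 at 20.2 ± 2.63 CPM per kb were within their spread, and Spry1 stood eighth at 0.659 ± 0.137 CPM per kb.

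The simvastatin effect was compared between the sets with an interaction term. Of 16126 genes 9 passed (0.0558%), and 0 of the 10 members did (edgeR, lowest adjusted p = 0.273), while 3 had an unadjusted p under 0.05. These were Etv5 (unadjusted p = 0.0178), Dusp4 (unadjusted p = 0.0194) and Etv4 (unadjusted p = 0.0388). DESeq2 and limma-voom were not run with this term.

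**Figure D4:**
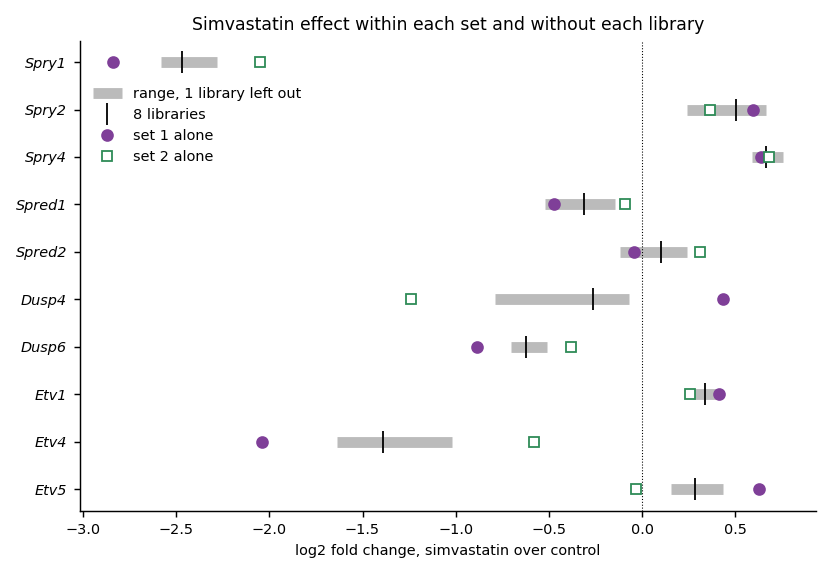
Log2 fold change (x axis) of each gene in set 1 alone (circles), in set 2 alone (squares) and over 8 libraries (black ticks), with grey bars for the range over the 8 fits that leave out 1 library. Dusp4 lies at 0.43 in set 1 and -1.24 in set 2, while Spry4 lies at 0.64 and 0.68.

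Most genes around the outputs did not pass the test, as was so for most genes measured. For this list and those below, the shares over all genes tested were 9.61% falling and 7.79% rising in edgeR over the 8 libraries. In either direction, DESeq2 called 3534 genes and limma-voom 2799, against 2805 in edgeR. Set 1 alone called 9.82% of genes and set 2 alone 18.3%. The share of all genes at an unadjusted p under 0.05 is not given, so counts at that threshold have no share beside them. The lists were chosen with earlier results of these data known. Of 14 other genes that respond to ERK, 13 were tested, 3 fell and 0 rose. All 13 had a log2 fold change below 0, with a median of -0.65, against 0.01 over all genes tested. At an unadjusted p under 0.05 there were 6, and 5 fell in DESeq2 and 3 in limma-voom. Epha2, an ephrin receptor, had 8.44, 12.4, 11.4 and 13.0 CPM with simvastatin, against 29.4, 19.98, 28.4 and 20.3 CPM in controls (log2 fold change -1.11, edgeR adjusted p = 0.00226). Its relative Epha4 fell to 16.6 ± 1.85 CPM with simvastatin, against 27.3 ± 4.94 CPM in controls. Junb, a subunit of AP-1, stood at 32.5 ± 3.73 CPM with simvastatin and 58.0 ± 15.5 CPM in controls (log2 fold change -0.83, edgeR adjusted p = 0.00849), and overlaps the abundant Prdx2 on the other strand, which makes its value uncertain as the strand setting is not known.

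Among phosphatases and inhibitors outside the 10, 1 gene passed over the 8 libraries. Of 8 other MAP kinase phosphatases 1 rose, 0 fell, and the median was 0.18 on the log2 scale. That gene was Dusp8, which acts on JNK and p38, at 44.8 ± 6.36 CPM with simvastatin and 26.5 ± 5.57 CPM in controls (log2 fold change 0.76, edgeR adjusted p = 0.00857). At an unadjusted p under 0.05 there were 3, with 3 rising in DESeq2, 2 in limma-voom and 0 falling in either, while in set 2 alone 1 rose and 1 fell. Of 10 other Sprouty family and receptor-level inhibitors 0 rose and 0 fell, with a median of 0.25, with 3 at an unadjusted p under 0.05, and 1 rose in DESeq2 while 0 passed in limma-voom. In set 2 alone 1 of them rose and 1 fell.

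Within the Ras-ERK relay itself 3 of 21 genes rose, beside 7.79% of all genes, and 0 fell, beside 9.61%. The median was 0.09 on the log2 scale, with 8 at an unadjusted p under 0.05. In DESeq2 4 rose and in limma-voom 3, with 0 falling in either. In set 2 alone 4 rose and 2 fell, beside 18.3% of all genes in either direction. In set 1 alone 1 rose and 0 fell, beside 9.82%. Grb2, the adaptor that links receptors to the Ras activator Sos, had 83.4, 89.6, 85.4 and 78.6 CPM with simvastatin, against 39.8, 50.2, 43.3 and 48.2 CPM in controls (log2 fold change 0.89 ± 0.10, SE; edgeR adjusted p = 0.00024). Nras, a Ras gene, stood at 237.9 ± 16.4 CPM with simvastatin and 166.7 ± 7.41 CPM in controls, while Hras did not pass (log2 fold change 0.24, edgeR adjusted p = 0.453). The groups of Grb2 and Nras did not overlap.

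Upstream of the relay, ligands and receptors moved in both directions. Of 13 FGF ligands and receptors 8 were tested, 2 rose and 1 fell, with a median of 0.10, and Fgf20 had 0 counts in every library. Fgf2 had 10.3, 11.2, 13.8 and 12.3 CPM with simvastatin, against 5.30, 3.31, 3.09 and 2.43 CPM in controls (log2 fold change 1.75, edgeR adjusted p = 0.000619). Nudt6 overlaps it on the other strand, at a mean of 6.14 CPM against 7.71 CPM for Fgf2, so the Fgf2 value is uncertain as for Junb. Fgf1, which overlaps Arhgap26 on the other strand (mean 27.3 CPM), stood at 126.9 ± 15.2 CPM with simvastatin and 92.6 ± 14.8 CPM in controls (edgeR adjusted p = 0.0422). That call was lost without any 1 of SMV replicates 2, 3 or 4 or Ctrl replicates 1 or 3 (edgeR adjusted p of 0.0672 to 0.125). The receptor gene Fgfr2 fell to 1.35 ± 0.220 CPM with simvastatin, against 4.29 ± 1.45 CPM in controls (edgeR adjusted p = 0.0022), and the span given for it in the files overlaps 68 other genes. Of 12 other receptor tyrosine kinases and ligands 4 fell and 0 rose, with a median of -0.34 (5 at an unadjusted p under 0.05; in DESeq2 5 fell and 0 rose, in limma-voom 3 fell and 0 rose). Nrg1, which encodes neuregulin, had 1.95, 4.75, 3.32 and 3.42 CPM with simvastatin, against 17.8, 10.2, 14.1 and 8.67 CPM in controls (log2 fold change -1.92, edgeR adjusted p = 0.00147). Hbegf, a ligand of the EGF receptor, stood at 55.5 ± 4.94 CPM with simvastatin and 86.9 ± 5.41 CPM in controls (log2 fold change -0.65). Pdgfra and Pdgfrb had log2 fold changes of -1.29 and -1.31, but -0.20 and -0.43 in set 2 alone, where neither passed (edgeR adjusted p = 0.376 and 0.0934). Leaving out a library ended one or both calls for SMV replicates 1 and 3 and Ctrl replicates 1 and 3, with edgeR adjusted p of up to 0.0779. The Pdgfra call also ended with set as a term (log2 fold change -1.20, edgeR adjusted p = 0.0507) and in limma-voom (adjusted p = 0.0515).

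Of 10 other ETS factors and the repressor capicua, 9 were tested, 1 rose, 2 fell, and the median was 0.03 on the log2 scale. Etv6, an ETS repressor, had 16.8, 19.7, 17.3 and 20.1 CPM with simvastatin, against 31.8, 28.9, 34.8 and 28.8 CPM in controls (log2 fold change -0.75, edgeR adjusted p = 0.00149). Etv3 rose to 36.0 ± 4.34 CPM with simvastatin, against 23.4 ± 1.42 CPM in controls. Ets1 stood at 23.8 ± 6.89 CPM with simvastatin and 39.1 ± 3.95 CPM in controls (log2 fold change -0.72, edgeR adjusted p = 0.0294). That call was lost without SMV replicate 2 or 3 or Ctrl replicate 3 or 4 (edgeR adjusted p of 0.0548 to 0.0775).

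**Figure D5:**
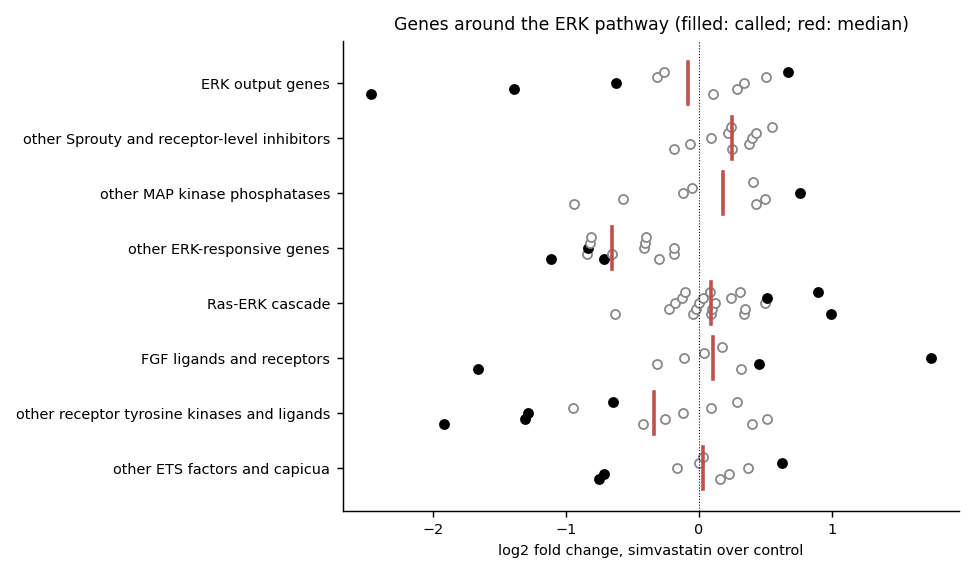
Log2 fold change of simvastatin over control (x axis) for every tested gene of the 8 lists (rows), with filled points for an adjusted p under 0.05 and red bars for the list median. All 13 tested genes of the other ERK-responsive list lie below 0, with a median of -0.65, against 0.01 over all genes tested.

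Across the 8 libraries, the genes most like Spry1 among 9909 with a mean of at least 5 CPM were Nup85, Birc5, Ube2t, Dctd and Umps, with Pearson r of log2 CPM between 0.991 and 0.994. The points share the treatment split, and 693 genes had r over 0.9. Nup85 encodes a nuclear pore subunit, Birc5 survivin, and Umps an enzyme of pyrimidine synthesis. Birc5 had 24.4, 26.2, 27.4 and 30.6 CPM with simvastatin, against 97.6, 76.1, 105.7 and 83.7 CPM in controls, and in both Birc5 and Spry1 the set 1 controls were the highest libraries.

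Markers of other heart cell types were present and some moved with the treatment. Fewer cells of a type and less RNA per cell cannot be told apart in these bulk samples. The samples also do not show which cells the RNA of a marker came from, cardiomyocytes included. Of 8 fibroblast and mesenchyme markers 3 fell and 0 rose over the 8 libraries (edgeR), and 1 fell in limma-voom. The calls of this list differed between the sets. In set 1 alone 6 fell and 0 rose, beside 9.82% of all genes in either direction. In set 2 alone 0 fell and 3 rose, beside 18.3%. Not every marker changed direction, as Pdgfra had a log2 fold change of -2.21 in set 1 alone and -0.20 in set 2 alone. Their sum was 1236 to 1440 CPM with simvastatin and 1145 to 2541 CPM in controls. All 4 listed smooth muscle markers fell, with sums of 429 to 644 CPM with simvastatin and 2500 to 3609 CPM in controls. Acta2 was the highest of them, at a mean of 291 CPM with simvastatin and 2582 CPM in controls. Myh11 was the lowest, at 1.18 and 4.29 CPM. Of 5 epicardial markers 1 rose and 1 fell (204 to 277 CPM with simvastatin, 162 to 263 CPM in controls), and of 6 endothelial markers 1 rose and 1 fell (201 to 256 and 202 to 287 CPM). Of 4 macrophage markers tested 2 fell (43.7 to 53.2 CPM with simvastatin, 59.6 to 69.9 CPM in controls), and of 5 erythroid markers tested 3 rose (14.9 to 33.9 and 7.40 to 11.2 CPM). Of 4 neural crest and Schwann markers 1 was tested and did not pass, and Foxd3 was at 0 counts. The set 1 controls, highest of the controls for Spry1, Spred1 and Etv4, were also highest for the listed fibroblast and mesenchyme markers other than Postn. Tcf21 had 15.5 and 17.5 CPM there, against 6.90 and 7.25 CPM in the set 2 controls. Postn had 32.3 and 22.0 CPM in the set 1 controls, against 24.5 and 19.5 CPM in the set 2 controls. Birc5, outside that list, was also highest in the set 1 controls. The part of these cells in the changes of Spry1 and the other members was not tested.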

How the data were processed

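Total RNA of 8 libraries was sequenced by the authors. Reads were processed with Trimmomatic 0.36, STAR 2.5.2b and featureCounts of Subread 1.5.2 on GRCm38, per the submitters' processing notes. Each deposited file holds unnormalized read counts by gene. Neither the strand setting nor the annotation release is stated in the labels or headers. Gene symbols were found for 99.5% of the 49315 identifiers. All replicate pairs differed beyond sampling noise. Genes passing the filterByExpr filter of edgeR 4.0.16 (16126) were tested with TMM scaling and the quasi-likelihood test on the 8 libraries in R 4.3.3, with Benjamini-Hochberg adjustment and a threshold of 0.05. CPM per kb is CPM divided by exonic length. Of these steps, only the edgeR treatment fit was tested on simulated data. Alternatives were DESeq2 1.42.0, limma-voom (limma 3.58.1), other scalings and filters, the replicate number as a block, set as a term, each set alone and each library left out.

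The members and lists were chosen with earlier results of these data known. Named were all 10 members, up to 4 called genes of each other list by smallest p, Hmgcs1, and the 5 genes most like the member with the smallest p. Others named (Hras, Birc5 values and cell type markers among them) follow from a list or comparison. Promoter windows are from RefSeq, GRCm38.p6. Results for some listed genes are not reported here, though the counts over lists include them.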

Additional observations from a re-analysis of the deposited data

Results flagged for a closer look

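Among 32 named genes, 64 groups of 4 libraries were searched for a library far from the others of its group, where chance alone gives about 5% of groups, and 1 was found. Hmgcs1 in Ctrl replicate 2 was at 1203 CPM, while the other controls were at 257.3 to 377.3 CPM.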

How the results depend on the processing

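Of 180 values of the 10 members under the alternatives, 160 kept their direction and side of the threshold, 10 lost the call, 5 gained one and 5 changed sign, and of 414 values of the other named genes 376 kept both and 38 lost the call. The calls of Spry1, Spry4 and Dusp6 held in all 8 fits without a library. The members that rose numbered 2 with library totals alone, 2 in the DESeq2 Wald test and 2 with set as a term (Spry4 and Etv1 each time), 0 in set 1 alone, and 1 to 2 without a library. Those that fell numbered 2 to 3 without a library. The median log2 fold change of the members was 0.19 in set 1 alone and -0.21 to 0.06 without a library. In set 1 alone 1627 genes changed, against 2805 with 8 libraries and 2002 to 2462 without a library. Sign changes, all of uncalled values, were Spred2 at -0.044 and Dusp4 at 0.43 in set 1 alone, Etv5 at -0.03 in set 2 alone, and Spred2 at -0.12 to 0.24 without a library. The Hmgcs1 call ended without SMV replicates 2, 3 or 4 or Ctrl replicates 1, 3 or 4 (edgeR adjusted p of 0.0541 to 0.0834). The cause of these changes was not tested. Same-numbered libraries did not deviate together (correlations of -0.14, 0.05, 0.13 and -0.16), so the numbers were not taken as pairs. With the replicate block 2131 genes changed, 2 members fell (Spry1 and Dusp6) and 1 rose (Spry4), with a median of -0.07. The calls of Etv4, Fgf1, Pdgfra, Pdgfrb and Ets1 ended with that block (edgeR adjusted p of 0.0633 to 0.122). Low counts limit the precision for Etv4 (26 to 224 per library), Spred2 (29 to 75) and Spry1 with simvastatin (44 to 71).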

Other observations

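Several genes shared the library pattern of Dusp4, which was noticed after the values were seen. Dusp1, an immediate early MAP kinase phosphatase, had 18.3, 4.49, 32.3 and 4.02 CPM in SMV replicates 1 to 4, against 4.93, 10.7, 12.2 and 14.0 CPM in Ctrl replicates 1 to 4. Errfi1, a feedback inhibitor of the EGF receptor, had 57.3, 20.2, 68.4 and 18.9 CPM with simvastatin, against 13.3, 34.4, 41.7 and 35.7 CPM in controls. Nkx2-5, a cardiac transcription factor, had 20.5, 3.97, 29.7 and 4.54 CPM with simvastatin, against 3.56, 11.7, 12.2 and 16.6 CPM in controls. In all of these SMV replicates 1 and 3 were the highest simvastatin libraries, and Ctrl replicate 1 was the lowest control. SMV replicates 2 and 4 and Ctrl replicate 1 also stood apart on the second principal component of all tested genes (17.5% of the variance), at 25.2, 33.8 and 30.4, while the other 5 libraries lay between -36.2 and 0.1. What sets these libraries apart was not tested.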
